A study of Homo sapiens with 4 samples.

Results

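The nuclear oxidative phosphorylation genes described here are the genes present in both deposited transcript tables that have protein-coding RefSeq transcripts and a symbol starting with NDUFA, NDUFB, NDUFC, NDUFS, NDUFV, SDHA to SDHD, UQCR, COX4 to COX8 or ATP5, without readthrough genes, whose symbols carry a hyphen. This rule, which used no measured value, found 99 of the 27685 genes in the tables. Of these, 93 had enough reads to enter the test, among 14868 genes tested. By role, 37 of the 37 subunits of complex I, 4 of 4 of complex II, 9 of 9 of complex III, 14 of 19 of complex IV (NDUFA4 and NDUFA4L2 counted there) and 15 of 16 of complex V were tested, as were the 8 complex I and 4 complex II assembly factors with NDUFAF and SDHAF symbols. ATP5S and ATP5SL, which RefSeq now names DMAC2L and DMAC2, were tested and are kept apart from the subunits, and DMAC2 is known from complex I assembly despite its old symbol. The remaining 6 members (COX4I2, COX6A2, COX7A1, COX7B2, COX8C and ATP5L2) had 0 to 2 reads in any library. The symbol rule does not take in CYC1, a nuclear subunit of complex III, which is counted below with the electron carriers.

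Oxidative phosphorylation takes place at the inner mitochondrial membrane, where complexes I to IV pass electrons from NADH and succinate to oxygen, complexes I, III and IV pump protons, and complex V, the ATP synthase, uses the proton gradient to make ATP. Complexes I, III, IV and V combine subunits encoded in the nucleus with subunits encoded in mitochondrial DNA, whereas complex II is encoded by nuclear genes only. Colonic epithelial cells are known for their use of mitochondrial respiration to oxidize short-chain fatty acids, whereas colon cancer lines such as HT-29 also rely on glycolysis.

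RNA-seq was done on HT-29 cells, a human colon cancer line with epithelial features, which carried either a control vector (Mock) or Myc-TRIM40, a tagged form of the E3 ubiquitin ligase TRIM40. The sample titles name no other treatment. The study describes stable overexpression, and its methods give retroviral transduction followed by puromycin selection. The comparison asks which RNAs differ when TRIM40 is overexpressed. Each of 2 independent experiments gave 1 control and 1 Myc-TRIM40 library, so that there were 4 libraries with between 60954602 and 67424698 reads assigned to transcripts. Whether the cells were a clone or a pool was not given in the sources used here, and the p-values measure the spread between these libraries. TRIM40 had 0 reads in both control libraries, which allows up to 3 reads in each, and it had 272646 reads in Myc-TRIM40 cells of experiment 1 and 110665 reads in those of experiment 2. All 12 colonic epithelial markers passed the filter, with KRT8 at 3355 to 4435 FPKM (fragments per kilobase of transcript, scaled to the number of mapped fragments) and EPCAM at 322 to 621 FPKM. Others were low, with at most 0.414 FPKM for the transcription factor CDX1, 1.08 FPKM for GPA33, 1.39 FPKM for CDX2 and 2.66 FPKM for CEACAM5. Of 12 markers of immune, endothelial and stromal cells, 6 passed, each at most 2.61 FPKM (CD14), and CD3E, COL1A2 and COL3A1 had 0 reads in every library. The 12 summed to 2.95 and 5.09 FPKM in the control and Myc-TRIM40 library of experiment 1 and to 3.71 and 3.42 FPKM in those of experiment 2. All 6 that passed were at least 1.5-fold higher in Myc-TRIM40 cells of experiment 1 (median log2 ratio 0.78), against 9.79% of all tested genes. In the control and Myc-TRIM40 library of experiment 1, CD79A had 6 and 18 reads, DES 9 and 18, and PECAM1 17 and 31. ACTA2 had 77 and 139 reads, CD14 148 and 243, and COL1A1 226 and 352. The median of the 6 was -0.0044 in experiment 2. Whether these markers have a part in the members' ratios was not tested. The summed reads of the members were 1.01% and 0.974% of the control and Myc-TRIM40 library in experiment 1, and 1.53% and 1.11% in experiment 2. The control library of experiment 2 stood apart from the other libraries in this share, and the results below are given for each experiment.

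Per length, the members were among the well-expressed genes of these cells. Together they made up 2.40% and 2.36% of all FPKM in the control and Myc-TRIM40 library of experiment 1, and 3.16% and 2.54% in those of experiment 2. The median member had 77.1, 75.5, 137 and 91.0 FPKM in the control and Myc-TRIM40 libraries of experiment 1 and then of experiment 2, so that the control of experiment 2 was the highest. Averaged over the 4 libraries, the median subunit had 227 FPKM in complex IV, 183 FPKM in complex V, 98.1 FPKM in complex II, 91.7 FPKM in complex III and 90.6 FPKM in complex I. The ranges of these groups overlapped, since complex I extended from 8.73 (NDUFA5) to 647 FPKM (NDUFB9) and complex V from 56.1 (ATP5J) to 913 FPKM (ATP5E, the epsilon subunit of the ATP synthase). Assembly factors, which help to build a complex without remaining in it, were lower, with a median of 12.3 FPKM for complex I and 17.3 FPKM for complex II. The order of the members by FPKM was close to the same in every library, with Spearman correlations over the 93 members between 0.968 and 0.996 for the 6 pairs of libraries.

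**Figure D1:**
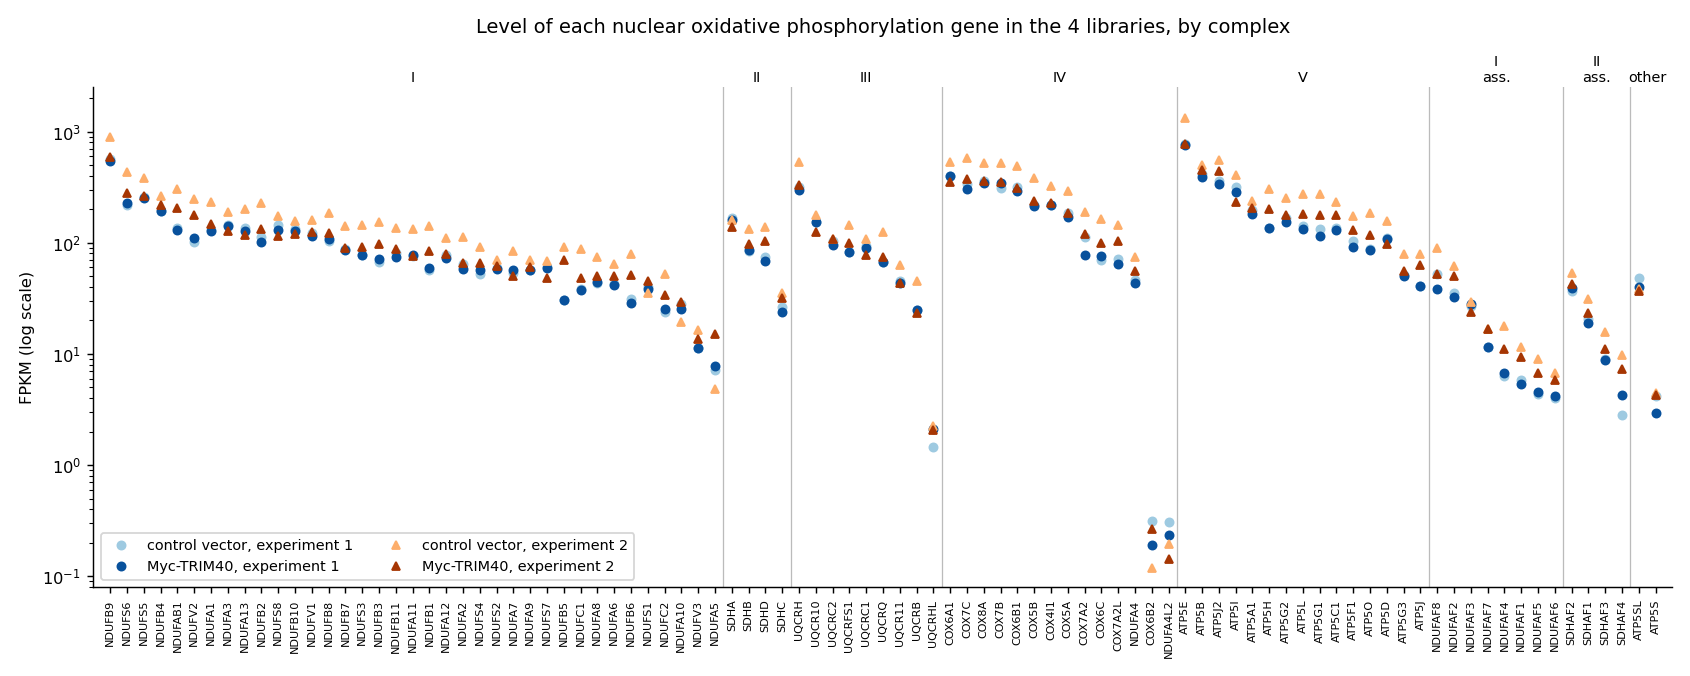
FPKM (log scale) of each of the 93 tested members in the 4 libraries, grouped by complex and ordered by mean level, where circles are experiment 1, triangles are experiment 2, light symbols are control vector, dark symbols are Myc-TRIM40, ass. marks assembly factors and other marks ATP5S and ATP5SL. The circles of experiment 1 lie on each other for most members, and the control of experiment 2 (light triangles) lies on top for most, on log2 CPM for 86 of 93 members.

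For subunits that exist in several isoforms, the cells held the widely expressed form. COX4I1, COX6A1, COX7A2, COX7B and COX8A had 216 and 325, 399 and 535, 113 and 189, 312 and 521, and 357 and 521 FPKM in the control libraries of experiments 1 and 2. Their counterparts COX4I2, known from lung, COX6A2 and COX7A1, known from heart and skeletal muscle, and COX7B2 and COX8C, known from testis, had 0 reads in all 4 libraries, which allows up to 3 reads in each. COX6B1 had 290 to 488 FPKM over the 4 libraries, whereas its testis counterpart COX6B2 had 0.119 to 0.314 FPKM. NDUFA4 had 43.6 to 74.1 FPKM, and NDUFA4L2, a paralog known to be induced by hypoxia, had 0.144 to 0.309 FPKM. UQCRH, the hinge protein of complex III, had 298 to 528 FPKM and its intronless copy UQCRHL had 1.46 to 2.25 FPKM, and how reads were divided between these near-identical genes is uncertain. Division of reads is also uncertain for SDHA, which has pseudogene copies. ATP5G1, ATP5G2 and ATP5G3 encode the same mature c subunit from transcripts of different length (576, 884 and 2639 bases), and the division of reads between them was not examined.

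Many promoters of these genes carry sites for a few shared activators, of which the nuclear respiratory factor NRF1, ETS-family factors such as GABPA, and YY1 are the best known. Among the members, 81 of 99 were matched to RefSeq promoter windows of 300 bases (250 before to 50 after a transcript start, build GRCh38.p14), with 100 windows in all. The NRF1 letters GCGCANGC, read on both strands, stood in 36.0% of the member windows, in 18.3% of the windows of tested genes and in 11.98% of all 35116 windows. The ETS letters CCGGAAG stood in 26.0%, 16.4% and 10.3%, and the YY1 letters ATGGCGGC in 16.0%, 5.06% and 3.00%. At least 1 of the 3 motifs was found for 52 of the 81 members and none for 29, while 43.5% of tested genes had at least 1. Matches of different motifs overlapped in 1 member window. A match is a match of letters only, and binding was not measured here. The windows below show a complex II, a complex I and 2 complex IV subunits, 5′ to 3′ with the matches in capitals. SDHB, the iron-sulfur subunit of complex II, held all 3 motifs, COX5B held NRF1 and ETS matches, and NDUFS6 held NRF1 and YY1 matches. COX7A2, the member with the lowest fitted log2 fold change, held an NRF1 match in the window shown, and another COX7A2 window held none of the 3 motifs. The windows shown lie at chr1:17053983-17054282 on the minus strand, chr2:97645812-97646111 on the plus strand, chr5:1801157-1801456 on the plus strand and chr6:75243752-75244051 on the minus strand.
SDHB: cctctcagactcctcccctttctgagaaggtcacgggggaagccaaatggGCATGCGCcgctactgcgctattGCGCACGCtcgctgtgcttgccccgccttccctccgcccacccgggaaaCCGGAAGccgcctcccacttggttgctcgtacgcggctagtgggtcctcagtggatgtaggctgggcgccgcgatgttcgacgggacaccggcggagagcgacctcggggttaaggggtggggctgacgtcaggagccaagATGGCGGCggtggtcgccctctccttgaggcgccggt
COX5B: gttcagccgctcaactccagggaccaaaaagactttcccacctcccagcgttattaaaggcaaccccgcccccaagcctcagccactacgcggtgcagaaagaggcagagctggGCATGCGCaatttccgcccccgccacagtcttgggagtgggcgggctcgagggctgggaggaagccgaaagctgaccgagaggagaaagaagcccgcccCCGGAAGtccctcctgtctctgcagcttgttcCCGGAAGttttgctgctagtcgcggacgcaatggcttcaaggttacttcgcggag
NDUFS6: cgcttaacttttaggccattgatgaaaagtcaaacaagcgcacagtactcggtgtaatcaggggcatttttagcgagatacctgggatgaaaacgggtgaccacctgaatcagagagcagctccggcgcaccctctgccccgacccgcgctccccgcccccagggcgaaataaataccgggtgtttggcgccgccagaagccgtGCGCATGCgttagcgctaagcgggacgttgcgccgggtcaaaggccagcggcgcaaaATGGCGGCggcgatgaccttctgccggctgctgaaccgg
COX7A2: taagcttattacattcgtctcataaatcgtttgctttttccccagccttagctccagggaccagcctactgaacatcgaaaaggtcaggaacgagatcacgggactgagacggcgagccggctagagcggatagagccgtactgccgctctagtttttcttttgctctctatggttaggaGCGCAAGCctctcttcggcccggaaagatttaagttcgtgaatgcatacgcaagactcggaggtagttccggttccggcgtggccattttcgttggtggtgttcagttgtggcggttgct

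In experiment 1 the members differed little between Myc-TRIM40 and control cells, and in experiment 2 nearly all of them were lower in Myc-TRIM40 cells. On log2 CPM (reads scaled by the library total and a TMM factor), the median member ratio of Myc-TRIM40 over control was -0.086 in experiment 1, a level of 0.942 times the control, with quartiles of -0.15 and -0.028. In experiment 2 it was -0.65, a level of 0.637 times the control, with quartiles of -0.76 and -0.47. The median over all tested genes was 0.0013 and 0.027 in experiments 1 and 2. In experiment 1, 84 of 93 members (90.3%) lay within 0.2 of 0 on the log2 scale, against 60.4% of all tested genes. Below 0 were 74 of 93 members (79.6%) in experiment 1, against 49.7% of all tested genes, and 89 of 93 (95.7%) in experiment 2, against 47.9%. On the scale of TPM, which sets the sum of each library to the same total, 50 members were below 0 in experiment 1 and 77 in experiment 2, while on either scale 74 and 89 were below the median of all tested genes.

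At a threshold of 1.5-fold, 2 members were lower in experiment 1, where 2.86% of all tested genes were, and 0 were higher, where 9.79% were. In experiment 2, 55 members were at least 1.5-fold lower against 9.8% of all tested genes, and 2 members (NDUFA5 and COX6B2) were at least 1.5-fold higher against 14.7%. COX7A2 was the 1 member lower by this much in both experiments, where 0.632% of all tested genes were. These ratios rest on 1 library per condition and have no replicate check. On TPM, which was calculated from FPKM for experiment 1, the median of all tested genes was 0.056 in experiment 1 and that of the members -0.0059. In experiment 2 these medians were 0.27 and -0.27, a gap of 0.54 against a gap of 0.68 on CPM.

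**Figure D2:**
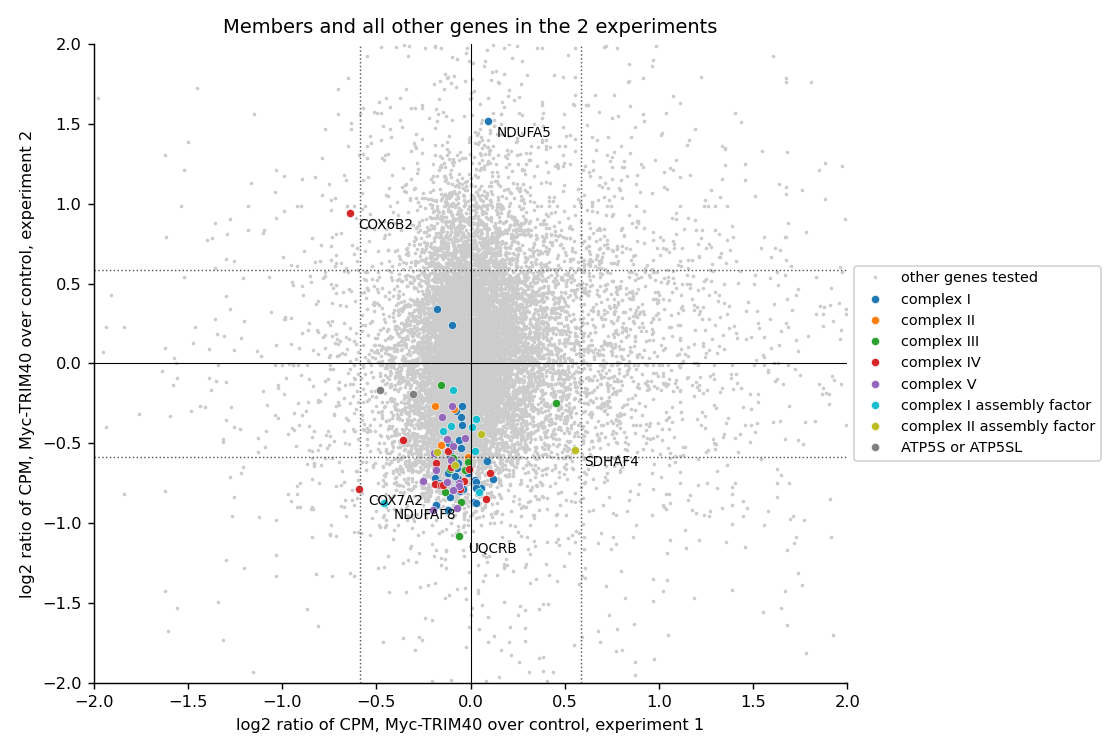
Log2 ratio of CPM, Myc-TRIM40 over control, in experiment 1 (x axis) and experiment 2 (y axis) for the 93 tested members, colored by role, and for the other tested genes in gray, with dotted lines at 1.5-fold. The members form a narrow cloud around -0.086 in experiment 1 and -0.65 in experiment 2, and the axes end at 2 in both directions, which leaves out 475 of 14775 other genes and no member.

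With both experiments in 1 fit, no member passed the test. By edgeR's quasi-likelihood test with the experiment as a block and Benjamini-Hochberg adjustment over 14868 genes, 0 of 93 members were called, against 0.0605% of all tested genes (9 genes), and the lowest adjusted p of a member was 0.888. At an unadjusted p under 0.05 the same test gave 1 member with a positive fold change (NDUFA5), against 3.41% of all tested genes, and 2 with a negative one (COX7A2 and NDUFAF8), against 1.13%. DESeq2 and limma also called 0 members. At an unadjusted p under 0.05, DESeq2 gave 1 positive and 9 negative members, against 2.37% and 1.27% of all tested genes, and limma gave 0 and 2, against 3.95% and 0.901%. The median fitted log2 fold change of the members was -0.36, against 0.037 over all tested genes. Without the control library of experiment 2 it was 0.049, and without the control library of experiment 1 it was -0.79, both without a block. In the latter fit 1 member was positive and 44 were negative at an unadjusted p under 0.05, against 7.6% and 3.77% of all tested genes, and 0 members were called after adjustment. Both Myc-TRIM40 libraries lay below both control libraries for 22 members, against 9.67% of all tested genes, and above them for 1 member, NDUFA5, against 11%. An exact permutation test of 2 against 2 libraries could not go below p = 0.333.

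Complex I, the NADH dehydrogenase, is the entry point of electrons from NADH. Its 37 subunits had a median log2 ratio of -0.065 in experiment 1 and -0.71 in experiment 2. In experiment 2, 25 of the 37 were at least 1.5-fold lower, against 9.8% of all tested genes. NDUFB9, an accessory subunit and the one with the most FPKM, had 561 and 549 FPKM in the control and Myc-TRIM40 library of experiment 1, and 889 and 588 FPKM in those of experiment 2. The control of experiment 2 was thus high, and the other 3 libraries lay close together. NDUFA2, an accessory subunit with the lowest fitted log2 fold change of the complex (-0.54, SE 0.24), had 63.8 and 57.4 FPKM in experiment 1 and 112 and 65.2 FPKM in experiment 2, control before Myc-TRIM40, and it overlaps another gene with reads. Among the core subunits, NDUFV1, which binds NADH, had log2 ratios of -0.11 and -0.50 in experiments 1 and 2. NDUFS3 had -0.041 and -0.79, and NDUFS8 had -0.19 and -0.71, so that both were past 1.5-fold in experiment 2 only. NDUFS1, the largest core subunit, had -0.10 and 0.24.

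NDUFA5, an accessory subunit of complex I on chromosome 7 (123177052 to 123241705, coordinates of the deposited tables), was the member with the highest fitted log2 fold change, 0.80 (SE 0.33), adjusted p = 0.888 by edgeR. It had 7.16 and 7.84 FPKM in the control and Myc-TRIM40 library of experiment 1 and 4.84 and 15.1 FPKM in those of experiment 2. The control of experiment 2 was the lowest library and the Myc-TRIM40 library of the same experiment the highest, the reverse of the order seen for most members. Its log2 ratio was 0.091 in experiment 1 and 1.52 in experiment 2. Its reads were spread over 10 listed transcripts, of which NM_005000 took 1302, 1419, 1219 and 2983 reads in the control and Myc-TRIM40 libraries of experiments 1 and 2, so that the main transcript showed the same order. NDUFA10, also a complex I subunit, had 28.3, 25.3, 19.5 and 29.2 FPKM in the same order of libraries. In the control of experiment 2, 1174 of its reads were assigned to NM_001322020, which had 29, 19 and 0 reads in the control and Myc-TRIM40 library of experiment 1 and the Myc-TRIM40 library of experiment 2.

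Complex II, the succinate dehydrogenase, belongs to both the TCA cycle and the respiratory chain. Its 4 subunits had log2 ratios between -0.19 and -0.014 in experiment 1 and between -0.58 and -0.27 in experiment 2, and 0 of 4 passed 1.5-fold in either. SDHA, the flavoprotein subunit, had 168, 162, 160 and 138 FPKM in the control and Myc-TRIM40 libraries of experiments 1 and 2, without the high control of experiment 2 seen elsewhere. SDHD, a membrane anchor, had 73.8, 68.3, 137 and 104 FPKM, again with the highest level in the control of experiment 2.

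Complex III, the cytochrome bc1 complex, passes electrons from ubiquinol to cytochrome c. Its 9 members had a median log2 ratio of -0.059 in experiment 1 and -0.66 in experiment 2. In experiment 2, 7 of the 9 were at least 1.5-fold lower, against 9.8% of all tested genes. The 9 members include the low UQCRHL and leave out CYC1, the cytochrome c1 subunit. CYC1 had log2 ratios of -0.11 and -0.13 in experiments 1 and 2. UQCRB, which binds ubiquinone, had the lowest ratio of all members in experiment 2 (-1.08), with 24.98 and 24.6 FPKM in experiment 1 and 45.6 and 23.4 FPKM in experiment 2, control before Myc-TRIM40. Here too the control of experiment 2 was the library that stood apart. UQCRC2, a core protein, had 104, 95.2, 108 and 107 FPKM in the control and Myc-TRIM40 libraries of experiments 1 and 2. Its log2 ratio of -0.13 in experiment 2 was the closest to 0 among these 9 members.

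Complex IV, cytochrome c oxidase, reduces oxygen to water. Its 14 tested subunits had a median log2 ratio of -0.13 in experiment 1 and -0.71 in experiment 2. In experiment 2, 11 of the 14 were at least 1.5-fold lower, against 9.8% of all tested genes. COX6A1 had 399, 398, 535 and 350 FPKM in the control and Myc-TRIM40 libraries of experiments 1 and 2. COX7A2, a small membrane subunit on chromosome 6 (75947391 to 75953644), had 113 and 76.8 FPKM in experiment 1 and 189 and 120 FPKM in experiment 2, control before Myc-TRIM40. It was lower in the Myc-TRIM40 library of each experiment, but its Myc-TRIM40 library of experiment 2 lay above its control of experiment 1, so the conditions overlapped. Its log2 ratios were -0.59 and -0.79, and its fitted log2 fold change of -0.69 (SE 0.22), the lowest among members, had adjusted p = 0.888 by edgeR. COX6B2 passed 1.5-fold in opposite directions, -0.64 in experiment 1 and 0.94 in experiment 2, on 33, 21, 14 and 29 reads in the control and Myc-TRIM40 libraries of experiments 1 and 2.

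Complex V makes ATP. All 15 tested subunits were below 0 in both experiments, against 26.3% of all tested genes. Their median log2 ratio was -0.10 in experiment 1 and -0.67 in experiment 2. In experiment 2, 9 of the 15 were at least 1.5-fold lower, against 9.8% of all tested genes. ATP5E had 779 and 759 FPKM in the control and Myc-TRIM40 library of experiment 1 and 1338 and 778 FPKM in those of experiment 2. Both Myc-TRIM40 levels were close to the control of experiment 1, and the control of experiment 2 was far above them. ATP5I, a small membrane subunit with the lowest fitted log2 fold change of the complex (-0.56, SE 0.25), had 319, 284, 403 and 233 FPKM in the same order. ATP5B, the catalytic beta subunit, had 411, 393, 501 and 453 FPKM and the highest fitted log2 fold change of the complex, -0.18 (SE 0.19).

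The 12 assembly factors with NDUFAF and SDHAF symbols had a median log2 ratio of -0.039 in experiment 1 and -0.49 in experiment 2. In experiment 2, 3 of the 12 were at least 1.5-fold lower, against 9.8% of all tested genes. NDUFAF8, which acts in complex I assembly, had 51.8 and 38.6 FPKM in experiment 1 and 88.9 and 52.9 FPKM in experiment 2, control before Myc-TRIM40. Its log2 ratios were -0.46 and -0.87, its fitted log2 fold change -0.67 (SE 0.22), and its adjusted p 0.888 by edgeR. On log2 CPM both Myc-TRIM40 libraries lay below both controls, the Myc-TRIM40 library of experiment 2 just under the control of experiment 1. SDHAF4, which acts in complex II assembly, went the opposite way in the 2 experiments, with log2 ratios of 0.55 and -0.54 on 93, 141, 359 and 248 reads in the control and Myc-TRIM40 libraries of experiments 1 and 2. ATP5S had log2 ratios of -0.48 and -0.17 and ATP5SL of -0.30 and -0.19, so that both were lower in Myc-TRIM40 cells by more in experiment 1 than in experiment 2.

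The ratios of libraries of the same condition showed where the experiments parted. The control of experiment 2 was above that of experiment 1 for 86 of 93 members, with a median log2 ratio of 0.76 (1.70-fold), against 0.0051 over all tested genes. The Myc-TRIM40 library of experiment 2 was above that of experiment 1 for 75 of 93 members, with a median of 0.22, against -0.040 over all tested genes. The control of experiment 2 was the highest of the 4 libraries for 86 members (92.5%), against 34.9% of all tested genes, and the Myc-TRIM40 library of experiment 1 was the highest for 0, against 28.0%. The members with the largest ratio between the controls were SDHAF4, at 3.64-fold, and NDUFB5, at 3.21-fold. NDUFB5, an accessory subunit of complex I, had 30.4 and 30.2 FPKM in the control and Myc-TRIM40 library of experiment 1 and 92.3 and 69.3 FPKM in those of experiment 2. NDUFV2, a core subunit that holds an iron-sulfur cluster, had 102, 111, 249 and 178 FPKM in the same order. For both genes each library of experiment 2 lay above each library of experiment 1. Each of these ratios shares a library with a ratio of Myc-TRIM40 over control, so the kinds of ratio are not separate measurements. The order of the members in experiment 1 did not carry over to experiment 2, and that of all tested genes did so only weakly. Correlations over the 93 members were -0.044 (Spearman) and -0.11 (Pearson), given as descriptions. Over all tested genes they were 0.12 and 0.15.

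**Figure D3:**
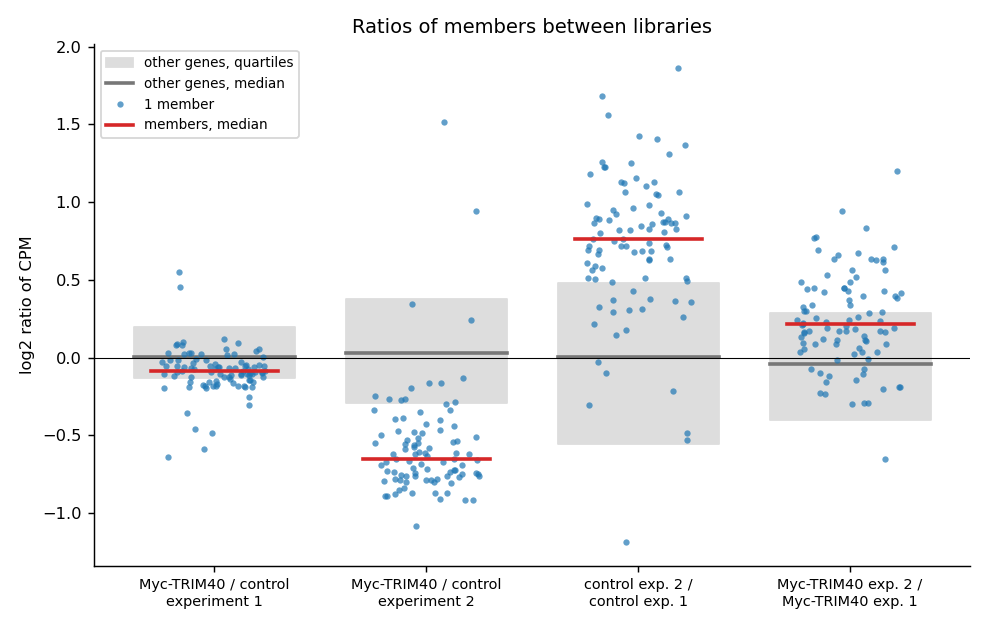
Log2 ratio of CPM for each of the 93 tested members (blue points) between 4 pairs of libraries, with the member median in red and the median and quartiles of the other tested genes in gray. The members center on -0.086 for Myc-TRIM40 over control in experiment 1, on -0.65 in experiment 2, on 0.76 for the control of experiment 2 over that of experiment 1, and on 0.22 for the Myc-TRIM40 libraries of the 2 experiments.

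Members have short transcripts, and transcript length moved with the ratios of experiment 2 over all genes. The length is that of the transcript with the most reads, and its median was 921 bases for the tested members and 2839 bases for all tested genes. Of the members, 50 (53.8%) were under 1000 bases, against 9.41% of all tested genes. Over all tested genes the Spearman correlation of length and log2 ratio was 0.077 in experiment 1 and 0.59 in experiment 2, and over the members it was -0.062 and 0.54. In the control of experiment 2, 14.2% of reads came from genes under 1000 bases, against 8.87% to 9.61% in the other 3 libraries. Its mean transcript length weighted by reads was 2911 bases, against 3425 to 3678 bases.

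Within experiment 2 the members followed this trend by length. All 50 members under 1000 bases were below 0, and 43 of them were at least 1.5-fold lower. Of 39 members with 1000 to 2999 bases, 11 were at least 1.5-fold lower. Of the 4 members with 3000 bases or more, NDUFA5 (5581 bases), NDUFA10 (4915 bases) and NDUFS1 (3473 bases) were above 0 in experiment 2, with log2 ratios of 1.52, 0.34 and 0.24, and UQCRB (4819 bases) was below it. Other genes with protein-coding RefSeq transcripts had a median log2 ratio of -0.65 at 500 to 749 bases, -0.61 at 750 to 999 bases, -0.45 at 1000 to 1499 bases, -0.29 at 1500 to 1999 bases and -0.095 at 2000 to 2999 bases. The members in these bins had medians of -0.73, -0.76, -0.52, -0.34 and -0.55, so that the 13 members at 2000 to 2999 bases had the widest gap to other genes. The 4 lowest of these 13 were NDUFAF4 (-0.80, 2411 bases), NDUFC2 (-0.78, 2475 bases), SDHAF3 (-0.63, 2057 bases) and ATP5G3, a c subunit gene of complex V (-0.61, 2639 bases). The highest were UQCRC2 (-0.13) and NDUFAF7 (-0.16), both with 2211 bases.

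**Figure D4:**
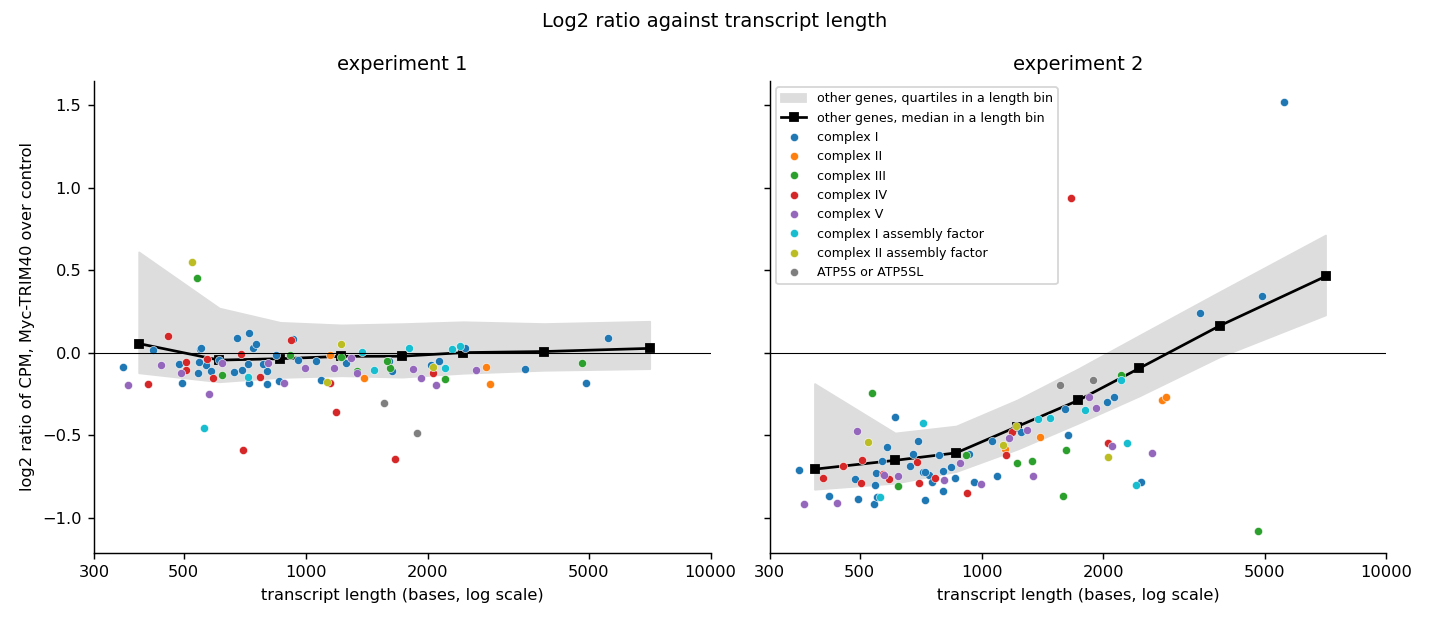
Log2 ratio of CPM, Myc-TRIM40 over control, against transcript length (log scale) for the 93 tested members in experiment 1 (left) and experiment 2 (right), with the median (black squares) and quartiles (gray band) of other genes with protein-coding RefSeq transcripts in bins of length. The line is flat in experiment 1 and climbs from -0.71 under 500 bases to 0.46 at 5000 bases or more in experiment 2, where most members lie on or under it.

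After the length trend of all tested genes was taken out of each experiment, the median member ratio was -0.069 in experiment 1 and -0.13 in experiment 2. In experiment 2, 3 members remained at least 1.5-fold lower, UQCRB (-1.36), NDUFAF4 (-0.71) and NDUFC2 (-0.71). NDUFA5 (1.16) and COX6B2 (1.22) remained at least 1.5-fold higher. The share of all tested genes past 1.5-fold on this adjusted scale is not given here. With the trend of genes with protein-coding RefSeq transcripts the median member ratio was -0.063 and -0.057. Among genes of 500 to 999 bases with a mean of at least 50 FPKM, the 37 members had a median of -0.74 in experiment 2 with 34 at least 1.5-fold lower (91.9%), and the 253 other genes had a median of -0.66 with 177 (70.0%). The members' lower ratios in experiment 2 were thus shared by other short, well-expressed genes, and the part of transcript length or of the control library of experiment 2 in them was not tested. Of the tested members, 23 overlap another gene with reads, among them NDUFS3, NDUFS8, ATP5B, ATP5E and NDUFA4L2, and the 70 that overlap none had medians of -0.089 and -0.64. In these bulk libraries, less RNA per cell and a different mix of cells cannot be told apart.

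Of the genes that act beside the members, taken from 5 lists, 0 were called by edgeR with the block or by DESeq2. In edgeR 1 of them, FMC1, had an unadjusted p under 0.05. Its fold change was negative, and 1.13% of all tested genes were negative at that threshold. Of 43 further assembly factors, 36 were below 0 in experiment 1 and 34 in experiment 2, against 49.7% and 47.9% of all tested genes. Their medians were -0.090 and -0.44. In experiment 2, 14 of the 43 were at least 1.5-fold lower, against 9.8% of all tested genes. The highest fitted log2 fold change of the 43 was that of COX15, which makes heme A for complex IV (0.40, SE 0.29). The lowest was that of FMC1, which acts in ATP synthase assembly (-0.57, SE 0.24). All 18 electron carriers and coenzyme Q genes, a list that also holds the complex III subunit CYC1, were below 0 in experiment 2. Their median was -0.30, and 47.9% of all tested genes were below 0. In experiment 1, 13 of the 18 were below 0, against 49.7% of all tested genes, with a median of -0.063. CYCS, cytochrome c, had 36.4, 34.5, 98.3 and 71.5 FPKM in the control and Myc-TRIM40 libraries of experiments 1 and 2, the 2 libraries of experiment 2 both above those of experiment 1. ETFB, a subunit of the flavoprotein that feeds electrons from fatty acid oxidation, had the lowest fitted log2 fold change of this list (-0.39, SE 0.25), and COQ10B the highest (0.092, SE 0.23).

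The 17 genes of the TCA cycle and pyruvate dehydrogenase had medians of -0.039 and -0.16 in experiments 1 and 2. OGDH, of the oxoglutarate dehydrogenase complex, had the highest fitted log2 fold change (0.23, SE 0.23) and PDHB, of pyruvate dehydrogenase, the lowest (-0.54, SE 0.28), with 19.3, 19.5, 45.6 and 24.2 FPKM in the control and Myc-TRIM40 libraries of experiments 1 and 2. The 76 mitochondrial ribosomal protein genes had medians of -0.077 and -0.50. In experiment 2, 29 of the 76 were at least 1.5-fold lower, against 9.8% of all tested genes. Among the 76, MRPS27 had the highest fitted log2 fold change (0.82, SE 0.49), with ratios of -0.35 and 2.00, and MRPS24 the lowest (-0.51, SE 0.25). The 18 regulators of mitochondrial biogenesis and mitochondrial DNA expression, most of them long transcripts with a median of 3350.5 bases, had medians of -0.076 and -0.059. NRF1 had 6.78, 5.94, 6.10 and 6.14 FPKM and TFAM, which packages and transcribes mitochondrial DNA, 18.2, 17.8, 28.0 and 29.5 FPKM in the same order of libraries. PPARGC1A, a coactivator of these genes, had the highest fitted log2 fold change of this list (0.55, SE 0.38) on 66, 118, 67 and 83 reads, and SSBP1, which binds single-stranded mitochondrial DNA, the lowest (-0.38, SE 0.22). The 13 subunits encoded in mitochondrial DNA were not analysed here.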

How the data were processed

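RNA-seq libraries of HT-29 cells (TruSeq Stranded mRNA kit) were compared between Myc-TRIM40 and control vector, 2 libraries per condition. The authors deposited the estimated counts of each RefSeq transcript, in whole numbers without normalization, the FPKM of each transcript, TPM for experiment 2, and transcript lengths in bases, one of the other deposited values. For experiment 1, TPM was calculated here by scaling the FPKM of each library to the same sum. The submitters' processing notes name HISAT2 2.1.0, StringTie 1.3.4d and hg19 without roles. Use of strand in counting was not given in the sources used here, so reads of overlapping genes (23 of the tested members overlap one with reads) cannot be assigned with certainty.

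Transcript counts, rounded to whole numbers where needed, were summed per gene, filtered with filterByExpr, scaled with TMM and fitted in edgeR 4.0.16 (R 4.3.3) with the experiment as a block, since the study compared libraries within an experiment and took the genes changed in common. Same-numbered libraries deviated together (correlation 0.449 over 14868 genes). Benjamini-Hochberg adjustment ran over all tested genes with a threshold of 0.05. Ratios within an experiment used log2 CPM with a prior count of 2 and have no test. The length trend was a lowess fit with a span of 0.667. Overlap meant another gene with at least 10 reads. The scripts were tested on simulated data with 200 genes changed 2-fold or 4-fold. The blocked edgeR test found 23 of the 2-fold and 89 of the 4-fold changes, and it called 4 unchanged genes. Intervals and the limit of 3 reads cover counting error only.

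The members and lists were chosen with earlier results of these data known. Named genes were, per complex, the member with the most FPKM and the highest and lowest fitted log2 fold change, the highest and lowest assembly factor and list gene, members past 1.5-fold in both experiments, and isoform pairs. Other members were named after their values were seen. Alternatives were no block, DESeq2 1.42.0, upper-quartile scaling, no filter, limma 3.58.1 on log2(FPKM + 1), protein-coding transcripts only, the length trend, pseudocounts of 0.1 and 1, a threshold of 2 and each library left out. The trend over protein-coding genes, FPKM for the correlations, the short well-expressed genes and the ratios of libraries of the same condition were chosen after seeing the data.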

Additional observations from a re-analysis of the deposited data

How the results depend on the processing

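No member was called under any of the alternatives run. Without the replicate block the median fitted log2 fold change of the members was -0.41 against -0.36 with it, and the block changed no call of a member. Leaving out 1 library at a time, it ranged from -0.79 (without the control of experiment 1, where 44 members were negative at an unadjusted p under 0.05, against 3.77% of all tested genes) to 0.049 (without the control of experiment 2). Experiment 2 alone gave -0.65 and experiment 1 alone -0.086. With the length trend taken out, the median of experiment 2 was -0.13, or -0.057 with the trend of protein-coding genes. In experiment 2, 3 members remained lower by 1.5-fold with either trend. NDUFA5 and COX6B2 remained higher by 1.5-fold in experiment 2 with the trend of all tested genes. In experiment 1 there was 1 lower and 1 higher with either trend, and 0 members were lower in both experiments. At a threshold of 2, 1 member was lower in experiment 2, 1 higher in experiment 2, 0 lower in experiment 1 and 0 lower in both. On FPKM with a pseudocount of 1, 0 members were lower in experiment 1 and in both, 1 was higher in experiment 2, and the Pearson correlation between experiments was 0.039. Shares of all tested genes are not given here for the counts without the length trend, at a threshold of 2 or on FPKM. On TPM the median of experiment 2 was -0.27. For the lists, the electron carriers ranged from -0.30 to -0.063 between single experiments and the biogenesis regulators from -0.076 to -0.059, with -0.10 under DESeq2, and the TCA cycle gave -0.028 without the length trend. Of 22 named members tested, the sign of 5 flipped with the protein-coding trend (COX6A1, SDHAF4, COX4I1, COX7B and COX8A). Why the values moved was not tested. The blocked fit had 1 residual degree of freedom, and a missed threshold does not show that the conditions were alike.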
